A study of Rattus norvegicus with 12 samples.

Results

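Mitochondrial ribosomal proteins are nuclear-encoded proteins that are made in the cytosol, imported into mitochondria and assembled with the mitochondrial rRNAs into the ribosome that translates the mitochondrially encoded subunits of the respiratory chain. Genes named Mrpl belong by name to the large subunit, where the peptide bond is formed and the nascent chain leaves through an exit tunnel, and genes named Mrps to the small subunit, which binds and decodes the mRNA. In pancreatic β-cells the respiratory chain couples the oxidation of nutrients to insulin release. Members were all rows of the table of detected protein-coding genes whose symbol begins with Mrpl or Mrps followed by a digit. This gave 71 genes of 13733, of which 42 were of the large and 29 of the small subunit. Gene symbols assign Mrps30 and Mrps18a to the small subunit, although their proteins lie in the large one, and Mrps36 is known as a component of the 2-oxoglutarate dehydrogenase complex.

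Total RNA was sequenced from dispersed islet cells of adult 3-month-old Wistar rats, 72 h after lipid transfection with 30 pmol of a single-stranded antisense oligonucleotide. In the anti-mt-tRF-LeuTAA group (n = 6) the oligonucleotide is complementary to mt-tRF-LeuTAA, a fragment of the mitochondrial leucine tRNA, and in the anti-control group (n = 6) it is a scrambled sequence. The labels name no other treatment or genotype for either group, and per the study each n stands for the islets of a single male rat. Small RNAs are not part of the gene table, so the silencing of the fragment itself was not analysed here. The question addressed was whether transcripts for the proteins of the mitochondrial ribosome differ when the fragment is silenced. All levels are log2 CPM, that is, the log2 of a gene's reads scaled to library size with a small added count, and all differences are anti-mt-tRF-LeuTAA minus anti-control. Levels are not corrected for transcript length, so they are compared between groups and not between genes.

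Listed genes held 16.4 to 20.3 M (mega) reads per anti-mt-tRF-LeuTAA library and 17.6 to 23.4 M per anti-control library (exact permutation test over 924 splits that ignored replicate numbers, two-sided p = 0.223). Depth was higher after silencing in 2 of 6 pairs of equal replicate number. Members had 85 to 1639 reads in a library. The 7 β-cell markers on the list took 9.43 to 15.1% of reads in anti-mt-tRF-LeuTAA libraries and 8.21 to 15.0% in anti-control libraries, with 0 of them called and 2 lower with the replicate block described below. The 3 α-cell markers took 0.386 to 4.39% in anti-mt-tRF-LeuTAA libraries and 0.203 to 4.08% in anti-control libraries. Replicate 1 differed most in this respect, with 2.15% in its anti-mt-tRF-LeuTAA library and 0.211% in its anti-control library. Acinar markers, of which 4 of 8 had a row and 1 was called higher, took at most 0.00254% of reads in anti-mt-tRF-LeuTAA libraries and 0.0033% in anti-control libraries. Ductal markers took 0.0323 ± 0.00416% of reads in anti-mt-tRF-LeuTAA libraries and 0.0381 ± 0.00667% in anti-control libraries, and stellate and fibroblast markers took 0.158 ± 0.0954% after silencing and 0.202 ± 0.119% in anti-control (SD, n = 6 each), both higher in 1 of 6 pairs and with 0 genes called without the block. Of 5 macrophage markers 1 was called higher, and with the block 1 was higher and 1 lower. With the block, 1 ductal marker and 1 stellate and fibroblast marker were lower, and 1 of 3 measured endothelial markers was higher. Over all genes, 15.5% were called without and 35.3% with the block. The part of the marker shares in the results below was not tested.

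Differences of the mitochondrial ribosomal protein genes were few and small. At an adjusted p of at most 0.05 (limma, Benjamini-Hochberg over all 13733 genes), 2 members were lower, against 4.65% of all genes, and 3 were higher, against 10.9% of all genes. All 5 were of the large subunit. They were Mrpl38, Mrpl45 and Mrpl12, which rose, and Mrpl16 and Mrpl17, which fell. Among the 29 genes of the small subunit 0 were called, with 5 at an unadjusted p of at most 0.05, as 3883 of all 13733 genes were, and 0 calls by limma-voom on recovered reads. Taken as a whole, 7.04% of members were called, against 15.5% of all genes.

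Libraries with equal replicate numbers were taken as pairs, and including that number in the model as a block made more calls. Over all genes the fit with the block gave 2431 lower and 2412 higher. The study reports the same counts at this threshold, whereas the fit without the block leaves the pairing out. With the block, 5 members were lower, against 17.7% of all genes, and 7 were higher, against 17.6% of all genes. In the large subunit, Mrpl54, Mrpl41 and Mrpl57 joined the lower genes, and Mrpl22 and Mrpl48 the higher ones. In the small subunit, 0 genes were lower and 2 were higher, namely Mrps18a and Mrps18b. The total of 16.9% of members compares with 35.3% of all genes. Each of the 5 members called without the block was also called with it.

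**Figure D1:**
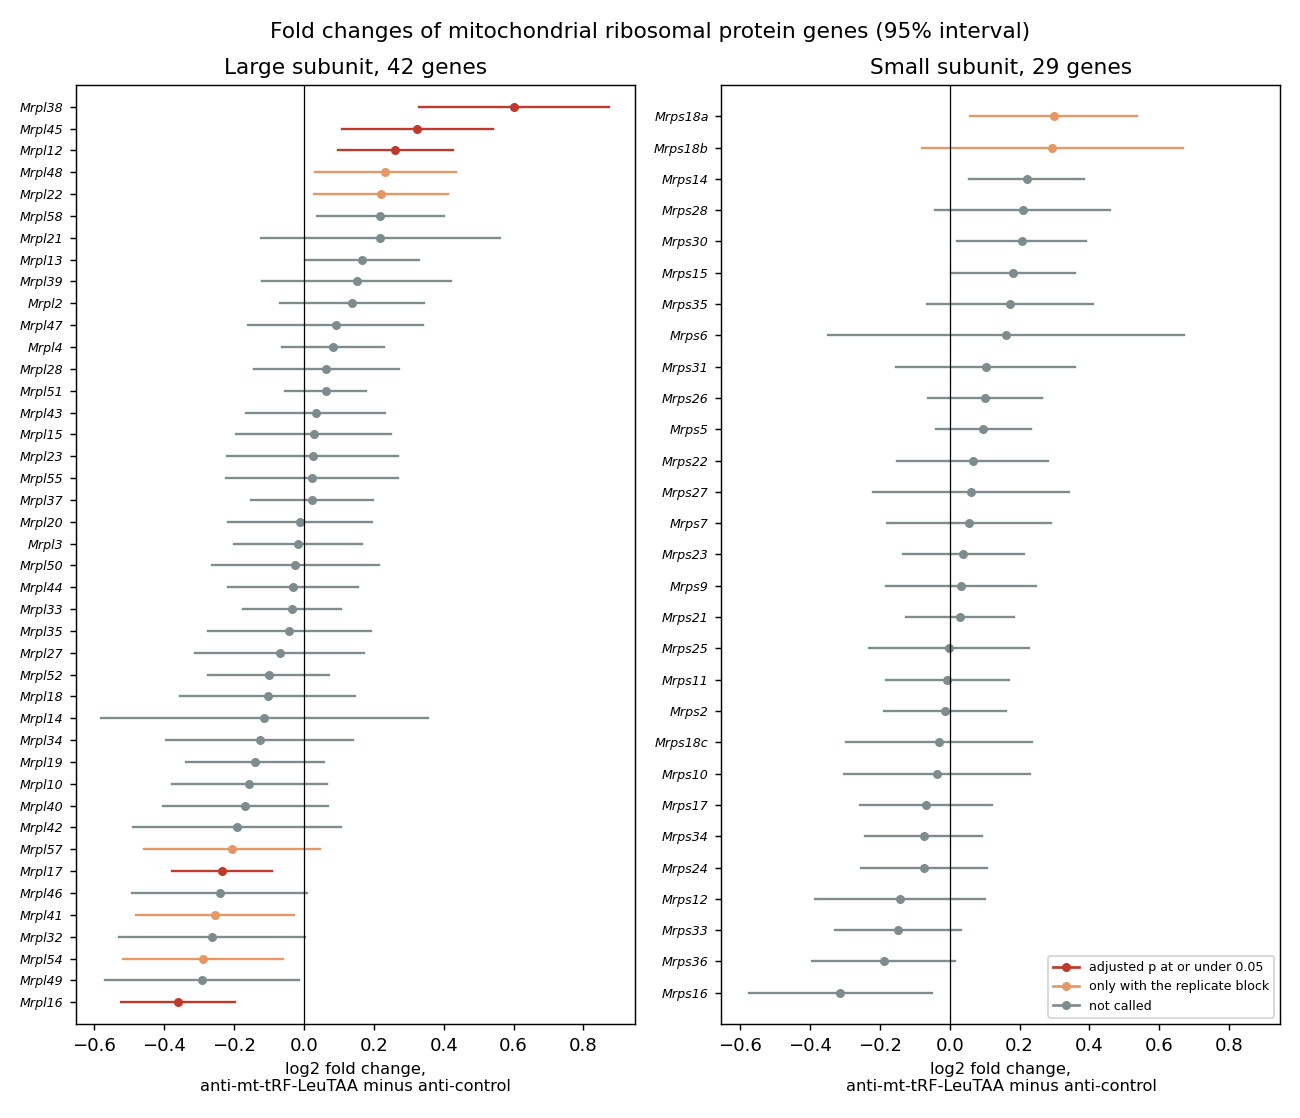
Log2 fold changes (anti-mt-tRF-LeuTAA minus anti-control, horizontal axis) of the 42 large subunit and 29 small subunit genes, sorted by size, with points for the estimate and bars for its 95% interval without the block. Red marks the 5 called genes, orange the 7 called only with the replicate block, and most intervals cross 0 in both panels.

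To show the DNA in front of members that were called, the 250 bases before the annotated start are printed from RefSeq (build GRCr8) for Mrpl17, Mrpl45, Mrpl12 and Mrps18b. The first 3 are the genes called without the block that have an entry, and Mrps18b is a small subunit gene called with the block. Of the 71 members, 56 matched an entry by symbol. Capitals mark matches to GCGCANGCG, a core of the site of NRF1 (nuclear respiratory factor 1, a transcription factor of nuclear genes for mitochondrial proteins), read on either strand.
Mrpl17 (chromosome 1, 169575700 to 169575949, minus strand): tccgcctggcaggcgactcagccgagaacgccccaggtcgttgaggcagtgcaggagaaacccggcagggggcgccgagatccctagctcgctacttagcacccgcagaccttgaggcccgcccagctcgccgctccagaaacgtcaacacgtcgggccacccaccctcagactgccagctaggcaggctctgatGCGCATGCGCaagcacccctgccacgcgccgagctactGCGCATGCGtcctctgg
Mrpl45 (chromosome 10, 82804789 to 82805038, plus strand): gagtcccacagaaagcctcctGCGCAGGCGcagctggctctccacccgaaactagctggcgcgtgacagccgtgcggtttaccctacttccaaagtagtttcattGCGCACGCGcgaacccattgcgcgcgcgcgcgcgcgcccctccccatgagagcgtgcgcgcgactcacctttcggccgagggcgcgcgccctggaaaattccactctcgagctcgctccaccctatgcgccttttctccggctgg
Mrpl12 (chromosome 10, 106256496 to 106256745, plus strand): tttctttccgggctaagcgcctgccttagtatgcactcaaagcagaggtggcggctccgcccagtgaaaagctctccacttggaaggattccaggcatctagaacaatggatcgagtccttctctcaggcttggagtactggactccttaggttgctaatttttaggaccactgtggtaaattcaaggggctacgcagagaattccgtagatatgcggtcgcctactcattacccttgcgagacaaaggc
Mrps18b (chromosome 20, 2842756 to 2843005, plus strand): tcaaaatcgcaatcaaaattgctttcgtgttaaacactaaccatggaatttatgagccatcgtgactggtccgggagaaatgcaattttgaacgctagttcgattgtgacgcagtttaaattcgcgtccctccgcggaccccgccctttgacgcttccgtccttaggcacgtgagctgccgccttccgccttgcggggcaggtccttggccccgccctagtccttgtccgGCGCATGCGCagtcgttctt
In Mrpl17, which fell, matches begin 55, 54 and 17 bases before the start, the first 2 of them overlapping on opposite strands. Mrpl45, which rose, holds matches that begin 229 and 145 bases before the start. Mrps18b, higher with the block, holds overlapping matches on both strands at 20 and 19 bases, whereas these letters are not in the window of Mrpl12. Among the windows printed, matches thus stood before genes that rose and before Mrpl17, which fell. Mrps18b is not typical of its subunit, since it held the only match among 22 small subunit windows. The window of Mrps18a, also higher with the block, had no match to these letters.

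Over all members with an entry, 8 of 56 windows held the NRF1 letters (14.3%), against 5.09% of all 33469 windows of this length. They were in 7 of 34 large subunit windows and in 1 of 22 small subunit windows. Among the 10 members called with the block that have an entry, 5 held them, namely Mrpl17, Mrpl22, Mrpl45, Mrpl57 and Mrps18b. CCGGAAG, a core of sites of the ETS family of transcription factors, was in 11 of 56 windows (19.6%), against 7.27% of all windows. AAGATGGC, a core of the YY1 site, was in 2 windows (3.57%), against 1.63%. Both were read on either strand, and matches to different motifs could overlap. The windows of members also had more CpG pairs, with a median of 13.5 per window against 5.0 over all windows, and a GC content of 54.4% against 51.2%. Members were reduced to 1 window per symbol, but the 33469 windows were reduced neither in this way nor to detected genes. The sets compared here are thus unlike. The NRF1 letters were widened from a stricter form after the windows had been read, and the matches are a description and no test.

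The largest increase of a member was that of Mrpl38 (ENSRNOG00000008256, Rnor_6.0 chromosome 10, 104682374 to 104689178, minus strand), which encodes a mitochondria-specific protein of the central protuberance of the large subunit. Its level ran between 5.31 and 5.89 log2 CPM in anti-mt-tRF-LeuTAA libraries (median 5.65) and between 4.80 and 5.40 in anti-control libraries (median 4.92). Only the lowest anti-mt-tRF-LeuTAA library lay below the highest anti-control library, and the gene was higher in 6 of 6 pairs. The log2 fold change was 0.60 (SE 0.13, 95% interval 0.33 to 0.87, adjusted p = 0.0054 by limma), a 1.52-fold increase. With the block the adjusted p was 0.000234 (limma). In the fit without the block the gene stayed called whichever of the 12 libraries was dropped (adjusted p 0.00172 to 0.0154 by limma).

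Mrpl45 (ENSRNOG00000010540, chromosome 10, 85257876 to 85269806, plus strand) encodes the protein near the mouth of the exit tunnel that tethers the ribosome to the inner membrane. Its libraries held 4.76 to 5.04 log2 CPM after silencing (median 4.95) and 4.24 to 4.87 in anti-control (median 4.62). It was higher in 6 of 6 pairs, with a log2 fold change of 0.32 (SE 0.10, adjusted p = 0.0433 without and 0.0129 with the block by limma). Dropping 1 library from the fit without the block ended this call in 9 of 12 cases (adjusted p up to 0.0957 by limma). These lacked anti-mt-tRF-LeuTAA replicate 1, 2, 3, 4 or 6 or anti-control replicate 3, 4, 5 or 6. Dropping a library with the block was not tested. RefSeq names a pseudogene of Mrpl45, and reads shared with such a copy could be split between the copies or lost in counting.

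Mrpl12 (ENSRNOG00000036695, chromosome 10, 109658032 to 109662535, plus strand) is the mitochondrial counterpart of the bacterial stalk protein that recruits translation factors, and it is also known to bind the mitochondrial RNA polymerase. The values were 5.20 to 5.48 log2 CPM in anti-mt-tRF-LeuTAA libraries (median 5.28) and 4.91 to 5.28 in anti-control libraries (median 5.01). All but 1 anti-control library lay below every anti-mt-tRF-LeuTAA library, and the gene was higher in 6 of 6 pairs. The log2 fold change was 0.26 (SE 0.08, adjusted p = 0.0347 without and 0.0137 with the block by limma). Its call ended in 8 of 12 such cases, without anti-mt-tRF-LeuTAA replicate 1, 2, 3 or 6 or without anti-control replicate 3, 4, 5 or 6 (adjusted p up to 0.0768).

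Mrpl16 (ENSRNOG00000021005, chromosome 1, 228142778 to 228147579, plus strand) encodes a conserved protein close to the tRNA binding sites of the large subunit, and it fell. Levels of 3.78 to 3.97 log2 CPM in anti-mt-tRF-LeuTAA libraries (median 3.81) stood against 4.08 to 4.30 in anti-control libraries (median 4.22). The groups did not overlap, which held for 2 members in this direction and for 2.27% of all genes. The log2 fold change was -0.36 (SE 0.08, adjusted p = 0.00523 without and 0.00426 with the block by limma), or 1.28-fold lower. The gene stayed called whichever library was dropped from the fit without the block (highest adjusted p 0.0147 by limma).

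Mrpl17 (ENSRNOG00000019497, chromosome 1, 170652294 to 170653920, minus strand), whose protein borders the exit tunnel as in bacteria, was the other member with separate groups. Its levels ran between 5.70 and 5.99 log2 CPM after silencing (median 5.92) and between 6.01 and 6.25 in anti-control (median 6.11). The log2 fold change was -0.23 (SE 0.07, adjusted p = 0.029 without and 0.0199 with the block by limma), lower in 6 of 6 pairs. Dropping 1 library from the fit without the block ended the call in 5 of 12 cases (adjusted p up to 0.0657 by limma). These lacked anti-mt-tRF-LeuTAA replicate 2 or 4 or anti-control replicate 1, 2 or 5. Quantile normalization and scaling by total reads, both without the block, also ended it (adjusted p up to 0.142 by limma). RefSeq names 2 pseudogenes of Mrpl17.

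**Figure D2:**
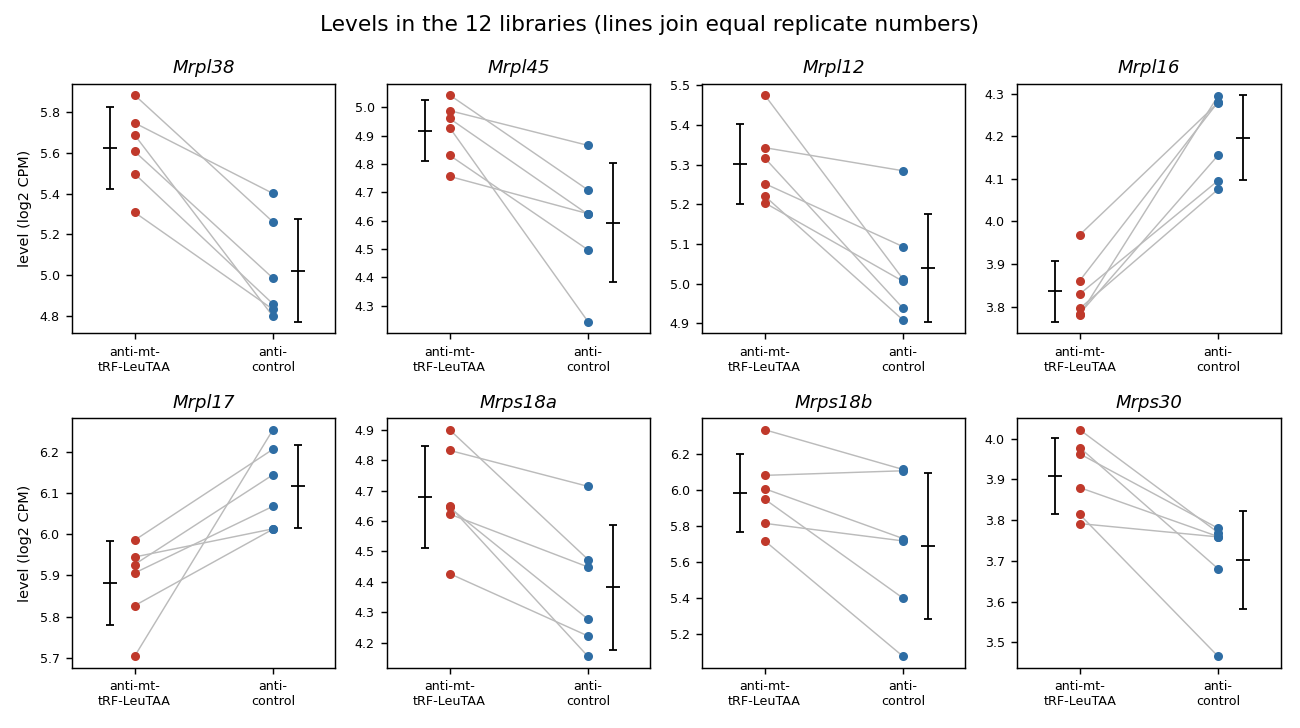
Levels (log2 CPM, vertical axes that do not start at 0) of 8 members in the 6 anti-mt-tRF-LeuTAA (red) and 6 anti-control libraries (blue), with lines between equal replicate numbers and bars for the mean ± SD. Mrpl16 and Mrpl17 are lower and Mrps30 is higher in every anti-mt-tRF-LeuTAA library than in any anti-control library, while the groups of the other 5 genes overlap.

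The 7 members called only with the block had log2 fold changes between -0.29 and -0.21 or between 0.22 and 0.30. Mrpl54, whose mitochondria-specific protein lies at the base of the stalk, had 4.74 to 5.16 log2 CPM in anti-mt-tRF-LeuTAA libraries (median 4.93) and 4.92 to 5.49 in anti-control libraries (median 5.24). These groups overlapped, but each pair was lower after silencing. The adjusted p was 0.0881 without and 0.00975 with the block (limma), at a log2 fold change of -0.29. Mrpl41 and Mrpl57, both mitochondria-specific proteins of the large subunit, gave -0.25 and -0.21 (adjusted p = 0.0236 and 0.0263 with the block by limma). Mrpl22, which lines the exit tunnel, gave 0.22, and Mrpl48, of the central protuberance like Mrpl38, gave 0.23 (adjusted p = 0.0316 and 0.0341 with the block by limma), both higher in 6 of 6 pairs. Mrpl57 overlaps Ska3 on the opposite strand in the deposited coordinates. No source used here gives the strand setting of the counting, so whether reads of such pairs were told apart is unknown.

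The 3 paralogs of the bacterial small subunit protein S18 differed in their values. Mrps18a, whose protein is part of the large subunit, had 4.43 to 4.90 log2 CPM in anti-mt-tRF-LeuTAA libraries (median 4.65) and 4.16 to 4.71 in anti-control libraries (median 4.36). It was higher in 6 of 6 pairs (log2 fold change 0.30, SE 0.11, adjusted p = 0.091 without and 0.0118 with the block by limma), and it overlaps Rsph9 on the opposite strand. Mrps18b, a mitochondria-specific protein of the small subunit, had 5.72 to 6.33 log2 CPM after silencing (median 5.98) and 5.08 to 6.11 in anti-control (median 5.72). Its libraries differed widely within a group, and the log2 fold change of 0.29 (SE 0.17) had an adjusted p of 0.298 without and 0.0277 with the block (limma), with 5 of 6 pairs higher. Mrps18c, which takes the place of S18 in the small subunit, had 4.06 to 4.29 log2 CPM (median 4.20) in anti-mt-tRF-LeuTAA and 3.76 to 4.49 (median 4.27) in anti-control libraries. Its log2 fold change was -0.03 (95% interval -0.30 to 0.24, adjusted p = 0.908 by limma), and differences between the paralogs were not tested. RefSeq names a pseudogene each of Mrps18b and Mrps18c.

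Of the other small subunit genes, Mrps30 was the one with separate groups, at 3.79 to 4.02 log2 CPM in anti-mt-tRF-LeuTAA (median 3.92) and 3.47 to 3.78 in anti-control libraries (median 3.76). It was the 1 member whose groups did not overlap in the higher direction, against 7.92% of all genes, and its adjusted p was 0.129 without and 0.067 with the block (limma, log2 fold change 0.21). Mrps14, a conserved protein of the head of the small subunit, had 4.63 to 4.87 log2 CPM after silencing (median 4.68) and 4.37 to 4.68 in anti-control (median 4.52). Its log2 fold change of 0.22 (SE 0.08) missed the threshold in both fits (adjusted p = 0.0716 without and 0.0574 with the block by limma). The lowest value of the subunit was that of Mrps16, a conserved rRNA-binding protein, at -0.31 (SE 0.12, adjusted p = 0.104 without and 0.0745 with the block by limma). Mrps16 had 3.27 to 3.86 log2 CPM in anti-mt-tRF-LeuTAA libraries (median 3.55) and 3.73 to 4.18 in anti-control libraries (median 3.77), and 5 of 6 pairs were lower. Mrps15 (0.18, adjusted p = 0.166 by limma) and Mrps36 (-0.19, adjusted p = 0.213 by limma) also stayed above the threshold.

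Among the members with the highest library-scaled levels were the called genes Mrpl17 and, with the block, Mrps18b. Next to them, Mrpl4 had 5.35 to 5.66 log2 CPM in anti-mt-tRF-LeuTAA libraries and 5.33 to 5.55 in anti-control libraries, and Mrps21 had 5.59 to 5.91 after silencing and 5.48 to 5.80 in anti-control. Neither was called in either fit, and both have bacterial counterparts. At the lower end, Mrpl14 was at 2.82 to 3.78 log2 CPM after silencing and 2.98 to 3.91 in anti-control, Mrpl21 at 2.95 to 3.46 after silencing and 2.48 to 3.19 in anti-control, and Mrps6 at 2.54 to 3.46 after silencing and 2.25 to 3.33 in anti-control. Mrps36, at 2.85 to 3.26 log2 CPM after silencing and 3.23 to 3.35 in anti-control, varied less between libraries than these. The 95% intervals of the log2 fold changes were wide for 3 of the scarce genes, at -0.58 to 0.35 for Mrpl14, -0.12 to 0.56 for Mrpl21 and -0.35 to 0.67 for Mrps6. With the block they narrowed to -0.33 to 0.10, -0.04 to 0.47 and -0.12 to 0.44 in the same order of genes, and all still included 0.

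As a set the members were spread narrowly around 0. Their log2 fold changes had an SD of 0.18, against 0.90 over all genes tested. For 68 of 71 members (95.8%) the 95% interval of the fold change lay within 1.5-fold in either direction, against 50.1% of all genes. The exceptions were Mrpl38, Mrps18b and Mrps6. Mean levels ran from 2.88 to 6.00 log2 CPM in members but from -2.27 to 16.3 over all genes, so these sets differ in level. The narrow spread was not particular to the members. The same share of intervals was 94.4% for nuclear complex I genes (SD 0.19) and 81.3% for cytosolic ribosomal protein genes (SD 0.12). The median log2 fold change was -0.02 in the large subunit and 0.04 in the small subunit, against -0.04 over all genes, with 19 of 42 and 17 of 29 positive values. Scaling by total reads alone turned the median of the large subunit to 0.05 and gave 0.11 for the small subunit and 0.04 for all genes.

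Within pairs of libraries the medians lay on both sides of 0. Over the 6 pairs the median difference of the large subunit ran from -0.10 to 0.04 and that of the small subunit from -0.08 to 0.09, while medians over all genes ran from -0.04 to 0.00. Between 15 and 25 of 42 large subunit genes and between 11 and 21 of 29 small subunit genes were higher in a pair. In 6 of 6 pairs, 7 members were lower and 8 were higher, as were 2276 and 2375 of all 13733 genes. The lower ones were all named Mrpl, and the higher ones included Mrps30 and Mrps18a.

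Summed reads gave a further description of the balance between the subunits. Large subunit genes took 0.106 ± 0.0073% of reads in anti-mt-tRF-LeuTAA libraries and 0.102 ± 0.00872% in anti-control libraries (SD, n = 6 each), higher in 4 of 6 pairs. Small subunit genes took 0.0784 ± 0.0035% after silencing and 0.0721 ± 0.00453% in anti-control, higher in 6 of 6 pairs. The ratio of large over small, which does not depend on the scaling, was 1.36 ± 0.0365 after silencing and 1.41 ± 0.0501 in anti-control, lower in 6 of 6 pairs with overlapping groups. With the genes assigned by the place of their protein in the ribosome, Mrps30 and Mrps18a in the large subunit and Mrps36 left out, the ratio was 1.51 ± 0.0361 after silencing and 1.55 ± 0.057 in anti-control, again lower in 6 of 6 pairs. The shares rest on total reads, and their directions depend on that scaling: on the deposited scaling the mean level of the large subunit genes was 4.47 ± 0.0669 log2 CPM after silencing and 4.48 ± 0.0816 in anti-control, higher in 2 of 6 pairs, and that of the small subunit genes was 4.54 ± 0.0388 after silencing and 4.50 ± 0.0565 in anti-control, higher in 4 of 6 pairs. Because these sums and means run over chosen members, no test was made. In bulk samples fewer cells of a type and less RNA per cell cannot be told apart.

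**Figure D3:**
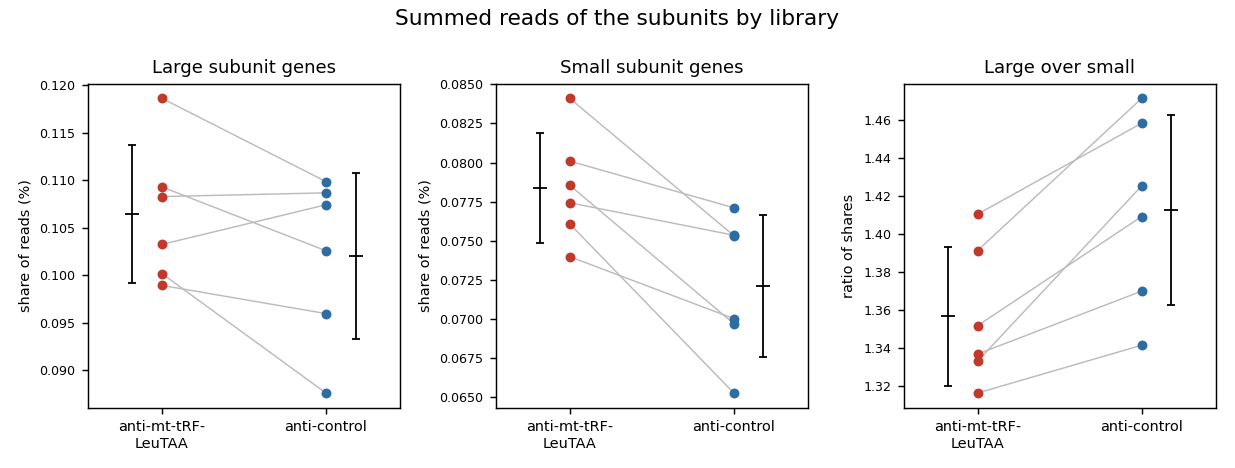
Share of reads (%) of the summed large and small subunit genes and the ratio of the shares (vertical axes that do not start at 0) in the 6 anti-mt-tRF-LeuTAA (red) and 6 anti-control libraries (blue), with lines between equal replicate numbers and bars for the mean ± SD. The small subunit share of total reads is higher and the ratio lower after silencing in 6 of 6 pairs, while the groups overlap in each panel.

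Called members were spread over the structure of the large subunit, with shares to be read against the 15.5% of all genes called without and 35.3% with the block. Of 24 measured large subunit proteins with bacterial counterparts, 2 fell (Mrpl16 and Mrpl17) and 1 rose (Mrpl12), with 2 and 2 with the block (12.5% called without and 16.7% with it). Of 20 mitochondria-specific ones, 0 fell and 2 rose (Mrpl38 and Mrpl45), and 3 fell and 4 rose with the block, Mrps18a included (10% and 35%). In the list of 5 measured proteins around the exit tunnel, Mrpl17 fell and Mrpl45 rose, joined with the block by Mrpl22, which rose (40% and 60%). Of the 3 measured proteins of the stalk and its base, Mrpl12 rose, and with the block Mrpl54 fell (33.3% and 66.7%). Among the 7 of the central protuberance Mrpl38 rose, joined with the block by Mrpl48 (14.3% and 28.6%). These lists are short, so a single call moves their shares far. The 16 small subunit proteins with bacterial counterparts had 0 calls in either fit, and the 10 mitochondria-specific ones had 1 with the block (Mrps18b). Both directions thus occurred among the proteins around the exit tunnel.

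Of 5 listed proteins of the mitochondrial ribosome that carry other names, 4 had a row and 0 of these were called, while Aurkaip1 was not analysed here. Dap3, a GTP-binding protein of the small subunit that is also known from apoptosis, had 5.39 to 5.70 log2 CPM in anti-mt-tRF-LeuTAA and 5.41 to 5.55 in anti-control libraries (log2 fold change 0.03, 95% interval -0.09 to 0.16, adjusted p = 0.769 by limma). Ptcd3, a pentatricopeptide repeat protein near the mRNA channel, gave -0.0047, Chchd1 gave 0.09 and Gadd45gip1, of the large subunit, gave -0.17 (adjusted p = 0.99, 0.655 and 0.397 by limma). With the block 0 of these 4 were called either.

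A smaller share of the factors that build the ribosome was called than of all genes. Of 25 measured factors of ribosome assembly and rRNA modification, 0 fell and 3 rose, and 2 fell and 4 rose with the block, which is 12% and 24%, against 15.5% and 35.3% of all genes. Rcc1l, an assembly factor of the large subunit, had 4.64 ± 0.0964 log2 CPM in anti-mt-tRF-LeuTAA libraries and 3.97 ± 0.0988 in anti-control libraries (SD, n = 6 each), without overlap (log2 fold change 0.67, SE 0.07, adjusted p = 3.04e-05 by limma). Mettl17, needed for assembly of the small subunit, and Mrm1, a methyltransferase of the large rRNA, rose by 0.37 and 0.30 on the log2 scale (adjusted p = 0.045 and 0.0332 by limma). The calls that came with the block were Mrm2, a further rRNA methyltransferase, at 0.41, and the pseudouridine synthase genes Rpusd3 at -0.37 and Trub2 at -0.22.

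Of 16 measured factors of mitochondrial translation, 0 fell and 2 rose, and 3 fell and 5 rose with the block, which is 12.5% and 50%, against 15.5% and 35.3% of all genes. Mtrf1l, which encodes the release factor for most mitochondrial stop codons, had 4.22 ± 0.188 log2 CPM after silencing and 2.15 ± 0.202 in anti-control (SD, n = 6 each), a log2 fold change of 2.07 (SE 0.13, adjusted p = 1.44e-07 by limma). Guf1, a GTPase of the elongation factor family, rose by 0.60 (SE 0.08, adjusted p = 0.000233 by limma). Both were higher in 6 of 6 pairs with no overlap of the groups. With the block the elongation factor gene Tufm (0.27), the release factor gene Mtrf1 (0.28) and the initiation factor gene Mtif2 (0.24) were also higher. Lower with the block were Oxa1l (-0.23), the insertase that receives nascent chains at the inner membrane, the ribosome recycling factor gene Gfm2 (-0.27) and the peptide deformylase gene Pdf (-0.49).

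Other gene groups of the same table gave the following values. For 75 cytosolic ribosomal protein genes the median log2 fold change was 0.08 (SD over genes 0.12), with 0 lower and 1 higher (0 and 8 with the block). For 36 nuclear genes of complex I the median was -0.03 (SD 0.19), with 0 calls, and 1 lower with the block. The 12 mitochondrially encoded protein genes, which the ribosome translates, all had negative values with a median of -0.19, but 0 were called in either fit, with 0 at an unadjusted p of at most 0.05 without the block and 2 with it (limma). Differences between these groups were not tested.

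**Figure D4:**
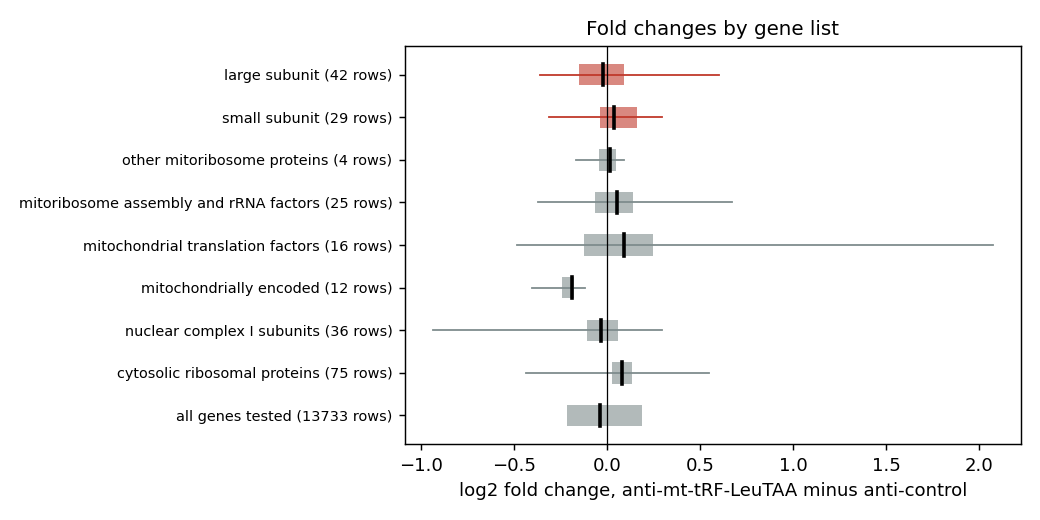
Log2 fold changes (anti-mt-tRF-LeuTAA minus anti-control, horizontal axis) by gene list, with the number of rows in parentheses. Black marks are medians, boxes the middle part between the quartiles and lines the whole range (not drawn for all genes tested), and the 2 subunits (red) lie around 0 with boxes narrower than that of all genes.

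In the genome, the 3 members that rose without the block lie on chromosome 10, as does Mrpl22, a place looked at after the values were known. Of the 12 members on this chromosome 9 had positive values, with a median of 0.06, against a median of -0.02 over its 1175 genes. On chromosome 1, which carries Mrpl16 and Mrpl17, 4 of 11 members had positive values. Their median was -0.10, against -0.04 over its 1701 genes. Chromosome 1 also carries Mrpl48, which was higher with the block. With the block, 17.3% of all genes on chromosome 1 were higher and 16.5% lower, against 18.3% and 18% on chromosome 10. A divergent gene on the opposite strand, starting within 1000 bases, was listed for 20 of 71 members (28.2%), against 9.1% of all genes. Among them is Mrps18b, whose start lies 584 bases from that of Ppp1r10, a regulatory subunit of protein phosphatase 1 in the nucleus. Ppp1r10 rose by 0.57 (adjusted p = 0.0153 by limma). Another is Mrpl43, whose divergent neighbour Twnk rose by 0.61 (adjusted p = 0.000526 by limma). Mrpl43 itself gave 0.03 (adjusted p = 0.859 by limma). Whether members move with such neighbours was not tested. A listed gene on the same strand ended within 50 kb upstream of 45.1% of members and of 42.6% of all genes.

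Upstream neighbours on the same strand were close for some of the members named. Fbf1 ends 3.6 kb upstream of Mrpl38 and itself gave 0.07 on the log2 scale (adjusted p = 0.642 by limma), and Hgs ends 0.6 kb upstream of Mrpl12, with 0.15 (adjusted p = 0.238 by limma). Cfap70 ends 0.6 kb upstream of Mrps16 and rose by 2.35 (adjusted p = 0.00014 by limma), although the value of Mrps16 was negative. RefSeq names pseudogenes or further copies of 22 of the 71 members. No member overlapped a listed gene on its own strand, and 8 overlapped one on the opposite strand. Whether reads from neighbouring genes entered these values was not tested.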

How the data were processed

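Total RNA of 12 transfections of dispersed rat islet cells was sequenced from stranded libraries. The processing notes of the submitters list STAR 2.5.3a and HTSeq 0.9.1 besides cutadapt 1.8, and they list edgeR 3.30.3 and limma 3.44.3 run in R 4.0.3, with the assembly Rnor_6.0 and no role or setting of each. The authors deposited log2 CPM values (reads scaled to library size, with a prior count of 1) for 13733 detected genes. Group means, fold changes, p-values and adjusted p-values of the authors in the same table, and further tables of changed genes, were not used. Back-transformation gave whole reads within 5.59e-08, so each library's depth was known.

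Groups were compared over all genes in R 4.3.3 by limma 3.58.1, from the deposited log2 values of the 12 libraries, with an intensity trend, no block and Benjamini-Hochberg adjustment. Calls were made at 0.05. P-values measure the spread between these samples. The numbers pair the libraries, since each is a rat per the study. Deviations from group means of equal numbers correlated by 0.474 to 0.763 over all genes, and 0.341 to 0.54 over the members. Over all genes, only anti-control replicate 1 correlated best with a library of another number. Over the members, both libraries of replicate 4 and anti-mt-tRF-LeuTAA replicate 5 did so. The main fit leaves the pairing out, and the fit with the number as a block is given beside the calls.

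The members and gene lists were chosen with earlier results of these data known. Named were, for each subunit, the called members or the 6 with the smallest adjusted p, the extreme fold changes, the 2 highest and 2 lowest levels, the Mrps18 paralogs and 4 further ribosome proteins. The cytosolic list dropped kinase and binding protein genes by name. Alternatives were the block, voom on recovered reads, no trend, quantile normalization, scaling by total reads, a prior count of 4, a filter at the 25th percentile of level, and leaving out each library. All but the first had no block. The test was run on simulated data first. Promoters and pseudogene names are from RefSeq (GRCr8).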

Additional observations from a re-analysis of the deposited data

Results flagged for a closer look

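Of 52 sets of 6 libraries examined, 2 held a library far from the others of its group, and chance alone marks about 1 in 20 such sets. Mrps30 was at 3.47 log2 CPM in anti-control replicate 6, where the other 5 anti-control libraries had 3.68 to 3.78. Mrps21 was at 5.48 log2 CPM in anti-control replicate 1, where the other 5 anti-control libraries had 5.69 to 5.80. Neither gene was called in either fit.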

How the results depend on the processing

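With the replicate block, 2431 genes were lower and 2412 higher over the whole table, and in the large subunit 5 were lower and 5 higher, in the small subunit 2 higher. The block changed the call of no member beyond those named in the report. With quantile normalization 1 large subunit gene was lower. With scaling by total reads alone, 1 large subunit gene was lower, 4 were higher (Mrpl58 was added) and 1 small subunit gene was higher (Mrps14). Scaling by total reads alone also gave 294 lower genes and a large subunit median of 0.0507. It moved the share of higher genes among all called to 85.7%, against 70.1% on the deposited scaling, and among called members to 83.3%, against 60% (75% with quantile normalization). A filter at the 25th percentile of level left 776 higher genes, since fewer were tested, and the same 5 members. Each library was also left out in turn, in fits without the block. In these, 1 to 3 large subunit genes were lower, 1 to 3 were higher, and 0 to 1 small subunit genes were higher. Mrpl16 and Mrpl38 were called in every such fit. Mrps18a was called without anti-control replicate 1 and Mrps14 without anti-control replicate 4, and Mrpl54 without anti-mt-tRF-LeuTAA replicate 3 or anti-control replicate 5. Directions turned only for uncalled genes near 0. Ptcd3 was at 0.036 with quantile normalization and 0.0668 with scaling by total reads, and Mrps18c at 0.0409 with that scaling. Over the fits without a library Ptcd3 ran from -0.128 to 0.0668, Mrps18c from -0.122 to 0.025, Mrps21 from -0.0161 to 0.0566 and Dap3 from -0.000989 to 0.0607. Without the trend Mrpl45 was not called (adjusted p = 0.0514 by limma), and the cause was not tested. Voom on recovered reads and a prior count of 4 gave the same 5 members. Precision is limited by 6 libraries a group and, for scarce members, by as few as 85 reads in a library. Pseudogene copies and opposite-strand neighbours may share reads with their genes, the strand setting of the counting being unknown here.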
